A study of Sus scrofa with 6 samples.

Results

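Enzymes that carry carbon from pyruvate into the citrate cycle, around the cycle and through the pentose phosphate pathway were compared between 2 culture types of IPEC-1 cells. These were air–liquid interface (ALI) and submerged (SMC) cultures of this epithelial line from the small intestine of newborn piglets. The list named 54 genes, and 46 of them had a probe set that carries exactly their symbol on the porcine array, among 6765 genes with a single symbol in all. These 46 comprised 23 genes of the pyruvate branch, 15 of the citrate cycle and 8 of the pentose phosphate pathway. PDK1, PDK2, PDP1, ACYP1, ACYP2, ACAT1, PGLS and H6PD had no probe set under their symbol and were not analysed here.

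Pyruvate, the end product of glycolysis, is either reduced to lactate or taken into mitochondria. There the pyruvate dehydrogenase complex turns it into acetyl-CoA for the citrate cycle, and pyruvate carboxylase turns it into oxaloacetate, which refills the cycle. The pentose phosphate pathway branches off glucose 6-phosphate and supplies NADPH and ribose 5-phosphate for nucleotides. The enterocyte is known as a cell with a high oxygen demand, and the citrate cycle feeds electrons to its respiratory chain.

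The 6 GeneChip Porcine Genome Arrays held 3 ALI and 3 SMC cultures of this 1 cell line, with 1 array of each culture type at passages P109, P111 and P113, called replicates 1, 2 and 3. According to the methods, all cells grew on porous membranes at first with medium on both sides and were later kept without fetal bovine serum. The medium held insulin, transferrin, selenium and epidermal growth factor in both groups, and ALI cells were left with little fluid above them while SMC cells stayed under a column of medium. The passages are cultures of the same line and not separate animals, so that p-values measure the spread between these arrays. Values are log2 signals as the authors deposited them, a fold change is ALI relative to SMC cells (ALI minus SMC on the log2 scale), and the test was limma with Benjamini-Hochberg adjustment over 23999 probe sets, with a gene called at an adjusted p under 0.05. Where several probe sets bore a gene's symbol, the brightest one on average over the 6 arrays stands for the gene.

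All 8 epithelial markers, among them EPCAM, CDH1 and KRT8, lay above the lowest 25% of the signals in every array, and none was called. Of 4 enterocyte markers with a probe set, VIL1 and ANPEP lay above this limit in all arrays. FABP2 lay below it in all of them, and APOA4 in 3 of 6 arrays. None of the 4 was called, while VIL1 and APOA4 were lower in ALI without overlap (log2 fold changes of -0.45 and -0.20). The titles and the cell line label name IPEC-1, while a free-text label names liver. Of 8 hepatocyte markers, 7 were above the limit in all arrays, with FGB below it. A signal above this limit does not show that a cell type is present. The mean log2 signal of the hepatocyte list was 6.42 to 6.79 in ALI and 6.12 to 6.84 in SMC cells, and its only called gene was the iron carrier TF, higher by 1.43 log2 units (adjusted p = 0.0412, and 0.0656 to 0.141 without any 1 array other than SMC replicate 3). The summed log2 signal of 6 markers of fibroblasts and smooth muscle was 35.9 to 37.1 in ALI and 38.1 to 40.8 in SMC cells without overlap. Most of this came from ACTG2, which was lower (log2 fold change of -2.66, adjusted p = 0.0158, and 0.081 without ALI replicate 1), while PDGFRB was at -0.50, COL1A2, ACTA2 and DES were at 0.23, 0.10 and 0.07, and the list's median was 0.04. DCN lay below the 25% limit throughout. Endothelial CDH5 and KDR and immune PTPRC lay below it as well, and endothelial TEK did so in 5 of 6 arrays. Endothelial PECAM1 and VWF and immune CD3E and CD14 lay above it in all arrays. PECAM1 was lower in ALI cells at -0.50 (adjusted p = 0.0448, and 0.0792 to 0.149 without any 1 array). The gap between 3′ and 5′ control probe sets of 6 actin, GAPDH and elongation factor pairs, a sign of RNA integrity, was 0.941 to 1.15 log2 units in ALI and 0.745 to 0.784 in SMC arrays. Its difference came mainly from 1 GAPDH and 1 actin pair, with 0.90 and 0.61 log2 units, against -0.16 to 0.13 in the others. The part of ACTG2 and of the control gap in the results below was not tested.

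Of the 46 enzymes, ALDH2 rose and the pyruvate carboxylase PC fell in ALI cells. This was 2.17% of the members in each direction, next to 1.02% of all 6765 genes called higher and 1.51% called lower. With the passage as a block, which pairs the arrays of a passage, the malic enzyme ME1 was called lower too, which made 1 higher and 2 lower members, beside 2.25% and 3.75% of all genes. In the main fit, without the block, both directions together gave 4.35% of the members and 2.53% of all genes. An unadjusted p under 0.05 was found for 7 members (15.2%) and for 16.0% of all genes. The median log2 fold change of the members was 0.02, with 23 genes above and 23 below 0, and that of all genes was 0.01. The share of enzymes that passed the test was thus close to that of the array as a whole. As the arrays measure whole cultures, fewer cells of a kind and less mRNA per cell cannot be told apart.

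**Figure D1:**
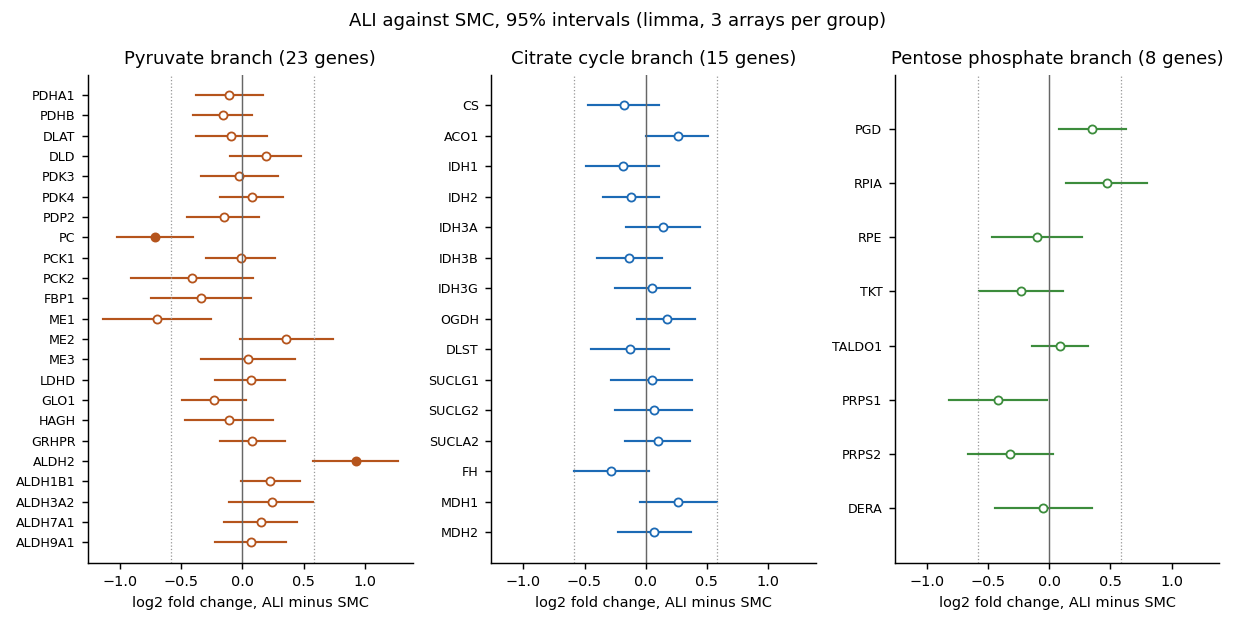
Log2 fold change (ALI minus SMC, x axis) of 46 enzymes in 3 panels by branch, with points for the limma estimate from 3 arrays per group, bars for its 95% interval, filled points for an adjusted p under 0.05 and dotted lines at a 1.5-fold change. Filled points are found for PC and ALDH2 of the pyruvate branch, and the citrate cycle estimates stay between -0.28 and 0.26.

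The 3 branches had medians near 0. The median log2 fold change was -0.01 in the pyruvate branch (range -0.71 to 0.93), 0.05 in the citrate cycle (-0.28 to 0.26) and -0.07 in the pentose phosphate pathway (-0.42 to 0.47). The middle 50% of the genes lay between -0.16 and 0.12, -0.13 and 0.12, and -0.25 and 0.16, and the median absolute log2 fold change was 0.15, 0.14 and 0.27 in this order, beside 0.13 over all genes. The 2 called genes belonged to the pyruvate branch, where 3 of 23 genes, namely ALDH2, PC and ME1, changed by more than 1.5-fold, as did 5.04% of all genes. None of 15 citrate cycle genes and none of 8 pentose phosphate genes did so. The 95% interval of the fold change lay within 1.5-fold in either direction for 17 pyruvate genes, 14 citrate cycle genes and 4 pentose phosphate genes, and for 76.1% of the members as of all genes. It lay within 2-fold for 93.5% of the members and 94.4% of all genes. The 17 pyruvate genes include PDK4, ME3 and ALDH1B1, whose signals lay in the lowest 25% of every array. For the brightest probe sets of these 14 citrate cycle enzymes, a change of 1.5-fold or more lies outside the interval, each taken alone. The log2 interval of another probe set reached beyond 1.5-fold for ACO1 (-0.84 to -0.11) and, by little, for IDH3A (-0.59 to 0.13). Whether the branches differ was not tested, since the members were chosen with results of these data known.

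ALDH2, the mitochondrial aldehyde dehydrogenase that oxidizes acetaldehyde to acetate, had log2 values of 11.71, 11.64 and 11.77 in the ALI arrays and 10.44, 10.97 and 10.93 in the SMC arrays of passages P109, P111 and P113. Every ALI array was above every SMC array, and the SMC array of passage P109 was lowest. The ALI mean was 11.71 ± 0.066 (SD, n = 3) and the SMC mean was 10.78 ± 0.291 (SD, n = 3), a 1.90-fold rise with a 95% interval from 1.5- to 2.42-fold (adjusted p = 0.0244). The difference within a passage was 1.26, 0.67 and 0.85 log2 units. With the passage as a block, the adjusted p was 0.00765. Without the block, it was 0.0517 to 0.101 without any 1 of the ALI arrays or without SMC replicate 2, while the estimate remained between 0.76 and 1.02.

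The other aldehyde dehydrogenases of the list did not pass the test. ALDH3A2, which oxidizes fatty aldehydes, had a log2 fold change of 0.24 (95% interval -0.11 to 0.58), ALDH7A1 of lysine breakdown had one of 0.15 (-0.15 to 0.45), and ALDH9A1 of carnitine synthesis had one of 0.07 (-0.22 to 0.36). ALDH1B1, a second mitochondrial enzyme, was at 3.70, 3.55 and 3.52 in ALI and 3.46, 3.27 and 3.35 in SMC arrays. Its groups did not overlap, but all 6 signals lay in the lowest 25% of the array and are not shown to be above background. Of 5 further family members with a probe set, namely ALDH1A1, ALDH4A1, ALDH5A1, ALDH18A1 and ALDH1L1, none was called, with or without the block, and their median log2 fold change was 0.16.

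PC, the mitochondrial pyruvate carboxylase that makes oxaloacetate from pyruvate, was 1.64-fold lower in ALI cells. Its log2 values were 7.78, 7.40 and 7.84 in ALI and 8.35, 8.46 and 8.34 in SMC arrays. All ALI arrays were below all SMC arrays, and ALI replicate 2 was the lowest. The log2 fold change was -0.71 (standard error 0.13, 95% interval -1.02 to -0.40, adjusted p = 0.0405), and the differences within passages were -0.57, -1.06 and -0.51. With the passage as a block, the adjusted p was 0.0216. Leaving out 1 array gave adjusted p-values of 0.0719 to 0.187 without the block, other than for ALI replicate 3 (0.042), with estimates from -0.79 to -0.58.

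**Figure D2:**
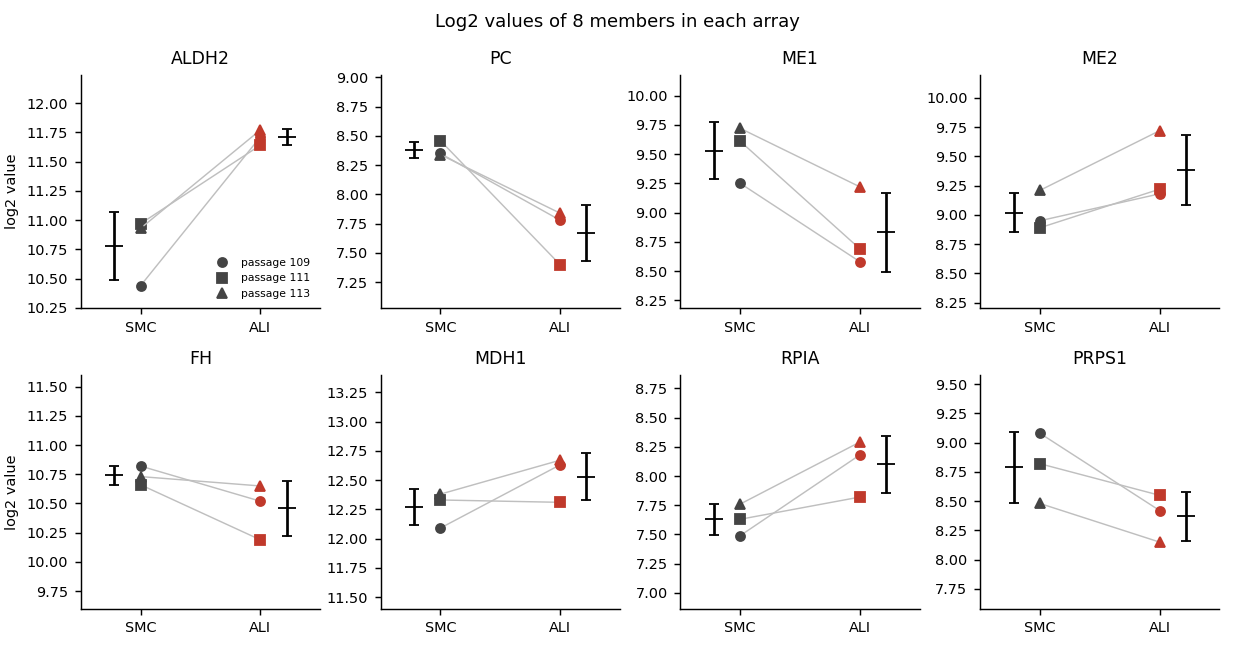
Log2 values (y axis, each panel spans 2 log2 units) of 8 enzymes in SMC and ALI cells, with a symbol per passage, grey lines joining the arrays of a passage and horizontal marks with bars for the mean ± SD of 3 arrays. ALDH2 and RPIA are higher in all ALI than in all SMC arrays, PC, ME1 and FH are lower, and ME2, MDH1 and PRPS1 overlap between the groups.

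Among the malic enzymes, which convert malate to pyruvate, the cytosolic ME1 and the mitochondrial ME2 had estimates of opposite sign, of which that of ME2 did not pass the test with or without the block. ME1, a source of NADPH, had log2 values of 8.58, 8.69 and 9.22 in ALI and 9.25, 9.61 and 9.72 in SMC arrays. The groups did not overlap, though the highest ALI value lay just below the lowest SMC value, and passage P109 gave the lowest value in both groups. The estimate was -0.70 (standard error 0.19, adjusted p = 0.134), and with the passage as a block the standard error was 0.12 and the adjusted p 0.0141. A second ME1 probe set gave -0.68, with an adjusted p of 0.102 and of 0.0118 with the block. Without ALI replicate 3, the call was made without the block as well (-0.89, adjusted p = 0.042).

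ME2, the NAD-dependent enzyme of mitochondria, had log2 values of 9.18, 9.22 and 9.72 in ALI and 8.95, 8.89 and 9.21 in SMC arrays, which gave 0.36 log2 units in favour of ALI (standard error 0.17, adjusted p = 0.374). The groups overlapped, while the ALI array was higher in each passage, by 0.24, 0.33 and 0.51. ME3, the NADP-dependent mitochondrial form, had signals in the lowest 25% of every array, like PDK4 and ALDH1B1 (6.52% of the members and 9.46% of all genes), so that no direction can be read from it. The log2 fold change of ME1 was 1.06 units below that of ME2, with differences of -0.91, -1.25 and -1.01 in the 3 passages. An exact two-sided permutation test over the 6 arrays gave p = 0.1, the smallest value that 3 against 3 arrays allow (adjusted p = 0.35 over 7 isoenzyme pairs, chosen after the values were seen). The exact p was 0.6 for IDH1 against IDH2, 0.4 for PCK1 against PCK2 and 0.8 for PRPS1 against PRPS2. The other 3 pairs include ME3 or PDK4, which were not shown to be above background, and are not read here.

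Enzymes of gluconeogenesis did not pass the test. PCK2, the mitochondrial phosphoenolpyruvate carboxykinase, was at 6.30, 6.29 and 6.30 in ALI and at 7.12, 6.84 and 6.16 in SMC arrays, so that the SMC arrays spread over almost 1 log2 unit while the ALI arrays were nearly equal. The estimate of -0.41 log2 units (standard error 0.22, adjusted p = 0.438) came from differences of -0.82, -0.55 and 0.14 within passages P109, P111 and P113. The cytosolic form PCK1 was at 5.82, 5.61 and 5.62 against 5.85, 5.51 and 5.74, with a log2 fold change of -0.01 (95% interval -0.30 to 0.27). For FBP1, the fructose bisphosphatase, the estimate was -0.34 (95% interval -0.75 to 0.07, adjusted p = 0.44), with the lowest value in ALI replicate 2, at 6.67.

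None of the 7 measured genes of the pyruvate dehydrogenase complex and its regulators was called, and the 95% intervals of all 7 lay within a 1.5-fold change. That of PDK4 came from signals in the lowest 25% of every array, so that no limit on its change can be read from it. PDHA1 and PDHB, the subunits of the first enzyme of the complex, had log2 fold changes of -0.11 and -0.16. DLAT, the acetyltransferase at its core, had one of -0.09, and DLD, the dehydrogenase that it shares with the oxoglutarate complex, had one of 0.19. PDHB was at 11.47, 11.42 and 11.58 in ALI and 11.59, 11.60 and 11.76 in SMC arrays, and its groups just did not overlap (adjusted p = 0.545). DLD was higher in the ALI array of each passage, by 0.31, 0.12 and 0.13, with overlapping groups.

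The pyruvate dehydrogenase kinases switch the complex off, and its phosphatases switch it on again. PDK3 was at 4.91, 4.69 and 4.95 in ALI and 5.03, 4.96 and 4.63 in SMC arrays, just above the lowest 25% of the signals (log2 fold change of -0.03, adjusted p = 0.952). PDK4 lay at 3.11 to 3.39 in all arrays, within that lowest 25%, so that no difference can be read from it. The phosphatase PDP2 had a log2 fold change of -0.15 (95% interval -0.45 to 0.14).

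The side reactions of pyruvate metabolism outside the aldehyde dehydrogenases held GLO1 and HAGH, which clear methylglyoxal, a by-product of glycolysis, and form D-lactate, and LDHD, which oxidizes it. The 3 probe sets of GLO1 were all lower in ALI than in SMC arrays without overlap. That with the highest mean had log2 values of 11.56, 11.56 and 11.51 in ALI and 11.60, 11.81 and 11.91 in SMC arrays (log2 fold change of -0.23, adjusted p = 0.398, and 0.315 with the block). The others gave -0.49 and -0.54, with adjusted p-values of 0.0676 and 0.0704, and of 0.0453 and 0.0477 with the passage as a block. HAGH and LDHD had log2 fold changes of -0.11 and 0.07, and their second probe sets had estimates of the opposite sign, 0.04 and -0.05. The glyoxylate reductase GRHPR had one of 0.08 (95% interval -0.18 to 0.35).

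In the citrate cycle, none of the 15 genes passed the test, with or without the passage as a block. CS, the citrate synthase that admits acetyl-CoA, was at 10.42, 10.33 and 10.59 in ALI and 10.60, 10.81 and 10.47 in SMC arrays, with a log2 fold change of -0.18 (95% interval -0.47 to 0.11). The subunits of the NAD-dependent isocitrate dehydrogenase, IDH3A, IDH3B and IDH3G, had log2 fold changes of 0.14, -0.14 and 0.05. OGDH and DLST, parts of the oxoglutarate dehydrogenase complex, had log2 fold changes of 0.17 and -0.13. For the succinyl-CoA ligase, the shared subunit SUCLG1 had one of 0.05, the GTP-forming SUCLG2 one of 0.07 and the ATP-forming SUCLA2 one of 0.10. The 95% intervals of these 9 genes, each by its brightest probe set, stayed between -0.47 and 0.44 log2 units.

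FH, the fumarase, had the lowest estimate of the cycle. Its log2 values were 10.52, 10.19 and 10.65 in ALI and 10.82, 10.66 and 10.73 in SMC arrays, and the groups did not overlap. The log2 fold change was -0.28 (standard error 0.14, 95% interval -0.59 to 0.03, adjusted p = 0.392). Among the brightest probe sets of the branch's genes, this was the only interval that reached beyond 1.5-fold. MDH1, the cytosolic malate dehydrogenase, had the highest estimate at 0.26 (95% interval -0.05 to 0.58, adjusted p = 0.426), with 12.63, 12.31 and 12.67 in ALI and 12.09, 12.33 and 12.38 in SMC arrays. At passage P111 its ALI and SMC arrays differed by -0.03, while at passages P109 and P113 they differed by 0.54 and 0.28. Its mitochondrial counterpart MDH2 had a log2 fold change of 0.07.

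The NADP-dependent isocitrate dehydrogenases were both slightly lower in the ALI array of each passage and did not pass the test. The cytosolic IDH1 was at 8.75, 8.55 and 8.79 in ALI and 8.99, 8.66 and 9.00 in SMC arrays (log2 fold change of -0.19, adjusted p = 0.569). The mitochondrial IDH2 was at 10.40, 10.40 and 10.30 in ALI and 10.58, 10.41 and 10.46 in SMC arrays (log2 fold change of -0.12, adjusted p = 0.657). Their log2 fold changes differed by 0.07 units (exact permutation test, p = 0.6). ACO1, the cytosolic aconitase that also acts as iron regulatory protein, was at 12.03, 12.12 and 12.01 in ALI and 11.87, 11.89 and 11.63 in SMC arrays without overlap (log2 fold change of 0.26, adjusted p = 0.339). Its other 2 probe sets gave -0.15 and -0.47, the latter with 2 of 6 signals in the lowest 25% of the arrays, so that no common direction was found for ACO1.

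In the pentose phosphate pathway, none of the 8 genes passed the test. RPIA, the isomerase that makes ribose 5-phosphate, was at 8.18, 7.82 and 8.29 in ALI and 7.49, 7.63 and 7.76 in SMC arrays. All ALI arrays were above all SMC arrays, by 0.68, 0.19 and 0.53 within the passages. Its log2 fold change of 0.47 (standard error 0.14, 95% interval 0.14 to 0.80) had an adjusted p of 0.178, and of 0.0766 with the passage as a block. PGD, the phosphogluconate dehydrogenase of the NADPH-forming part, was at 8.07, 8.08 and 8.13 in ALI and 7.80, 7.89 and 7.54 in SMC arrays, also without overlap (log2 fold change of 0.35, adjusted p = 0.218).

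The phosphoribosyl pyrophosphate synthetases, which use ribose 5-phosphate for nucleotide synthesis, had negative estimates. PRPS1 was at 8.42, 8.55 and 8.15 in ALI and 9.08, 8.82 and 8.48 in SMC arrays, and its estimate was -0.42 (standard error 0.17, adjusted p = 0.323, and 0.0897 with the block). PRPS2 was at 9.28, 8.87 and 9.38 against 9.44, 9.41 and 9.63 (log2 fold change of -0.32, adjusted p = 0.384). In both genes the ALI array was lower in every passage, and only PRPS2 had groups that did not overlap. The second probe set of PRPS1 gave -0.08, and the others of PRPS2 gave 0.01 and -0.31. In the reversible, sugar-shuffling part, the transketolase TKT, the transaldolase TALDO1 and the epimerase RPE had log2 fold changes of -0.23, 0.09 and -0.10. DERA, which splits deoxyribose phosphate, had one of -0.05.

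**Figure D3:**
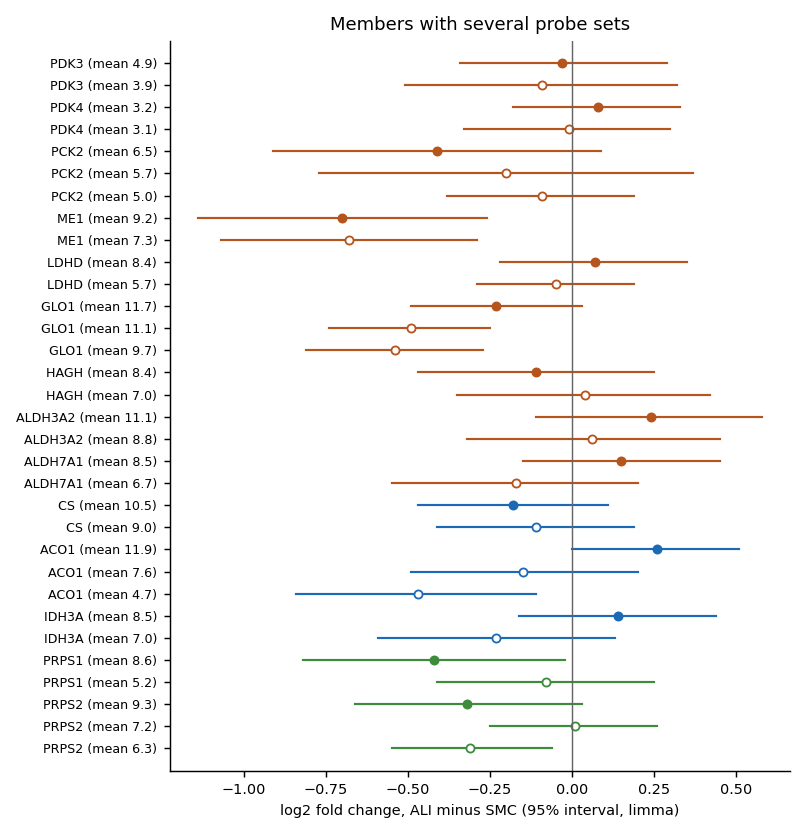
Log2 fold change (ALI minus SMC, x axis) with its 95% interval for every probe set of the 14 enzymes with several probe sets, labelled by gene and mean log2 signal, where filled points stand for the gene in the text and open points do not. The points of ME1 and GLO1 all lie below 0, whereas those of ACO1, ALDH7A1 and IDH3A lie on both sides of it.

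Of the 14 enzymes with more than 1 probe set, 7 had estimates of the same sign in all of them (50%), as did 56% of the 2261 genes of this kind on the array. The probe sets of a gene differed by a median of 0.24 log2 units, and those of all such genes by 0.19. The largest spread was that of ACO1, at 0.73.

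**Figure D4:**
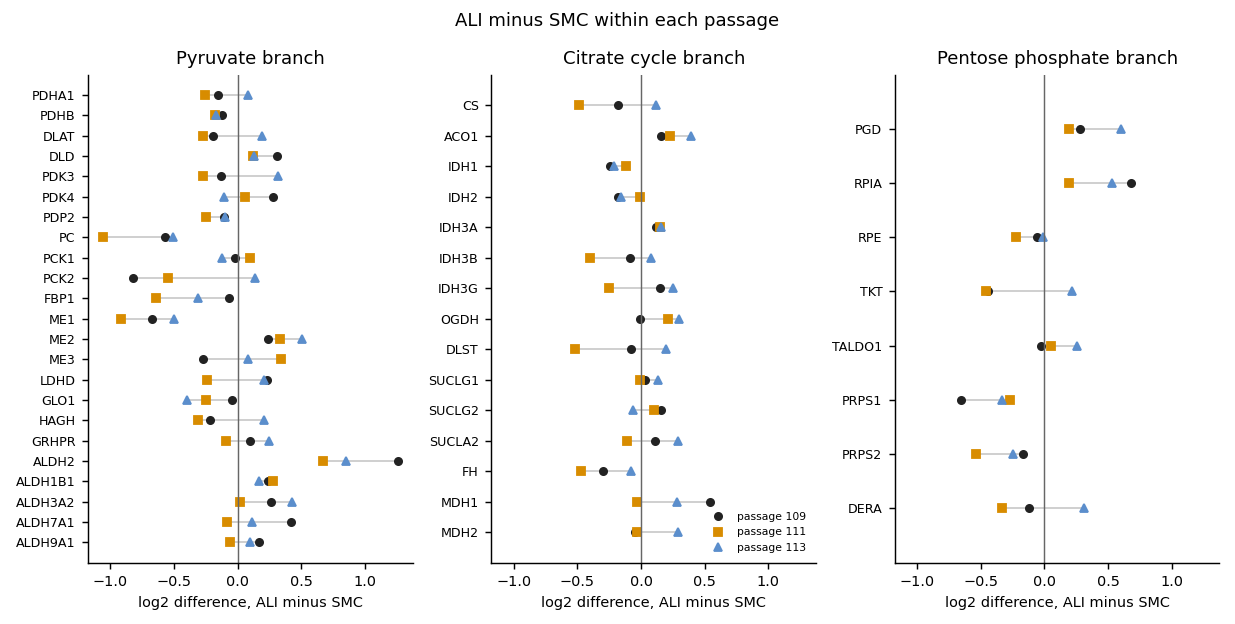
Difference between the ALI and the SMC array of the same passage (log2 units, x axis) for 46 enzymes in 3 panels by branch, with a symbol per passage and grey lines over their range. PC and ME1 lie below 0 and ALDH2, ME2, RPIA and PGD above 0 in each passage, and the square of passage P111 is often the leftmost.

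In most enzymes the ALI minus SMC difference was not of one sign in the 3 passages. In 9 of the 46 genes (19.6%) the ALI array was higher in all 3 passages, and in 12 (26.1%) it was lower, against 23.2% and 21.0% of all genes. The groups did not overlap in 5 genes with higher and 7 with lower ALI values, or 10.9% and 15.2%, and in 11.0% and 10.9% of all genes. The 5 were ALDH2, ALDH1B1, ACO1, PGD and RPIA, and the 7 were PDHB, PC, ME1, GLO1, IDH2, FH and PRPS2. The median difference over the members was -0.05, -0.11 and 0.13 log2 units in passages P109, P111 and P113, and the pentose phosphate genes ranged widest, with -0.09, -0.25 and 0.24.

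ALI replicate 2 (passage P111) stood apart for these enzymes. It had the lowest value of the 3 ALI arrays in 29 of 46 members (63%), and in 39.7% of all genes. The median deviation of the members from their ALI mean was -0.14 log2 units in this array, 0.03 in ALI replicate 1 and 0.12 in ALI replicate 3, and over all genes it was -0.02, 0 and 0.03. Without ALI replicate 2, the median log2 fold changes of the pyruvate, citrate cycle and pentose phosphate branches were 0.05, 0.04 and 0.07. No member was called then, as was also so without ALI replicate 1 or without SMC replicate 2.

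Further genes of the same pathways were taken from a fixed list of 58 names, of which 31 had a probe set. In ALI cells 5 of them (16.1%) were called lower and none higher, beside 1.51% and 1.02% of all genes, and their median log2 fold change was 0.04, against 0.01 for all genes. The list was chosen with results of these data known, so that no excess is read from these shares. Among its called genes, LDHA, PGM1 and GPI also belong to glycolysis or glycogen turnover. LDHA, the lactate dehydrogenase subunit that favours lactate formation, had the largest change of the list, at -2.24 (standard error 0.21, adjusted p = 0.0035), while LDHB was at 0.07. ACSS2, which activates acetate to acetyl-CoA in the cytosol, was lower at -1.08 (adjusted p = 0.00802), and SLC25A1, the mitochondrial citrate carrier, at -0.60 (adjusted p = 0.037, and 0.0755 to 0.131 without any 1 array other than ALI replicate 3). At the entry to the pentose phosphate and glycogen pathways, PGM1 and GPI, which interconvert the glucose phosphates and fructose 6-phosphate, were lower at -1.57 and -1.22 (adjusted p = 0.00759 and 0.0141, the latter 0.0766 without ALI replicate 1).

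MPC1, a subunit of the carrier that brings pyruvate into mitochondria, was at 10.52, 10.46 and 10.75 in ALI and 9.92, 10.12 and 10.09 in SMC arrays. The groups did not overlap, and the estimate was 0.53 (standard error 0.12, adjusted p = 0.0727). The adjusted p was 0.0352 with the passage as a block and 0.0464 after quantile normalization, 0.256 by the methods' t-test and 0.0993 to 0.198 without any 1 array. For its partner MPC2 the estimate was -0.27 (adjusted p = 0.435). The 4 succinate dehydrogenase subunits SDHA, SDHB, SDHC and SDHD, which complete the citrate cycle, had log2 fold changes of 0.02, -0.06, -0.04 and 0.08, and none was called with or without the block.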

How the data were processed

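The table that the authors deposited holds log2 values of 24123 probe sets for 6 arrays. According to the methods, the arrays were read with Affymetrix GCOS (version 1.1.1 in the submitters' processing notes) and normalized by GC-RMA, which corrects background by probe sequence and equalizes the distributions. The table itself names no normalization, and it was not scaled again. Median log2 signals were 6.33 to 6.38, and the 25% quantile was 4.515 to 4.612. Precision is limited by the number of arrays, which have no depth.

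After 124 control probe sets were left out, 23999 were fitted with lmFit and eBayes (limma 3.58.1, R 4.3.3), with culture type as the only factor. Symbols came from the platform annotation: 10069 probe sets had 1, 198 had several and 13732 had none. Current RefSeq symbols were the same for all members. Called means an adjusted p under 0.05. Intervals are limma's 95% intervals without adjustment over genes. The fit was tested on simulated data. The members and lists were chosen with earlier results of these data known, so that no set test was made.

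Values are given for called members, those farthest from 0 in each branch, isoenzymes and differing probe sets, and the others by their estimate. By the labels, every passage has 1 ALI and 1 SMC array. Deviations from the group mean correlated at 0.34, 0.14 and 0.451 between such arrays across probe sets. Between other ALI and SMC pairs they correlated at -0.424 to 0.219, a range that includes the 0.14 of passage P111. The main fit left this pairing out. The value with the passage as a block is given for called members and where it changes a call. Alternatives were this block, quantile normalization, filters on dim probe sets (mean log2 signal above 4 or 6), an intensity trend, averaging the probe sets of a gene, the methods' t-test and leaving out each array. No sequences or coordinates were used here.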

Additional observations from a re-analysis of the deposited data

How the results depend on the processing

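The count of 1 enzyme higher and 1 lower in ALI cells was found again after quantile normalization, with both filters on dim probe sets, with an intensity trend and with the probe sets of a gene averaged. With the passage as a block it was 1 and 2, and this changed no other call among the brightest probe sets of the members. Of their dimmer probe sets, the second of ME1 and those of GLO1 were called lower with the block only (adjusted p = 0.0118, 0.0453 and 0.0477). The methods' t-test with Benjamini-Hochberg adjustment called 0 and 0 members, and 0 of all 23999 probe sets. In this test 7 of the 46 members and 2891 of the 23999 probe sets had an unadjusted p of at most 0.05. Leaving out 1 array gave 0 to 1 higher and 0 to 2 lower members. The medians of the branches moved by less than their spread between passages under each alternative run. Of the uncalled members, 15 changed sign under at least 1 alternative. With averaged probe sets, ALDH7A1, ACO1 and IDH3A had log2 fold changes of -0.01, -0.12 and -0.04, and after quantile normalization ME3 had one of -0.01. Without 1 array, estimates ranged from -0.15 to 0.05 for PDK3, -0.11 to 0.06 for PCK1, -0.12 to 0.14 for ME3, -0.28 to 0.03 for HAGH, -0.01 to 0.14 for GRHPR, 0 to 0.18 for ALDH9A1, -0.05 to 0.19 for IDH3G, -0.08 to 0.14 for SUCLG1, -0.03 to 0.18 for SUCLG2, -0.05 to 0.16 for MDH2, -0.25 to 0.02 for RPE and -0.24 to 0.12 for DERA. The causes were not tested. With 3 arrays per group the 95% interval stayed within 1.5-fold for 35 of the 46 members, and signals in the lowest 25% of the arrays are not shown to be above background.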
